A study of Mus musculus with 24 samples.

Results

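The 8 vehicle-treated Lewis lung tumours of a study of 24 tumours in 3 groups were described here on their own, as the baseline state of this tumour. Members were chosen by the sample labels alone: every tumour whose treatment label reads vehicle, with all 18723 genes of the deposited expression table. Lewis Lung Cancer cells, labelled as a lung adenocarcinoma line, were cultured and then grown as tumours in mice labelled WT, and the mice of this group received vehicle in place of poly I:C, anti-PD-1 and PMX53. Each tumour is named by the letter C and its mouse number (C_339, C_351, C_356, C_358, C_361, C_364, C_369 and C_375), which is the sign in the labels that the tumours came from separate animals. The age and sex of the mice and the day of harvest are not given in the sources used here, and the cells are 1 cell line, so the spread between tumours is that of 1 line in different hosts.

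Lewis lung carcinoma is a transplantable mouse tumour used widely as an immunocompetent model of lung cancer. A tumour grown in a host holds the implanted cancer cells together with host macrophages, neutrophils, lymphocytes, fibroblasts and vessels, and RNA from the whole mass is sequenced as 1 mixture. Levels are given in the deposited unit, log2 CPM, where CPM is the reads of a gene scaled to a common library size, in which a step of 1 is a doubling of a gene's share of reads; a single value ± SD is over n = 8 tumours. In such a mixture, fewer cells of a type and less RNA per cell cannot be told apart. No test between conditions applies within 1 group, so levels and spreads below are descriptions unless a test is named.

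The libraries held 14438318 to 17225195 reads assigned to genes, and 285 to 478 of the listed genes had 0 reads in a given tumour. Across genes the log2 CPM of any pair of tumours correlated at 0.968 to 0.982. Tumours C_339, C_364 and C_375 stood apart from the others in several respects. Tumour C_339 had the highest share of mitochondrially encoded reads, 4.92% against 2.07% to 3.17% in the others. It was also the highest tumour for 18 of the 20 ribosomal protein genes listed. The nuclear-retained non-coding RNAs Malat1 and Neat1 were lowest in tumour C_339, at 8.92 and 9.03 log2 CPM, and highest in tumour C_375, at 10.54 and 10.58. Whether RNA quality differed was not tested. Extremes of level fell unevenly over the tumours: of the 9362 genes at or above the median level, 24.1% were highest in tumour C_339, 23.8% in tumour C_364 and 15.1% in tumour C_375, against 3.13% in tumour C_369. Likewise 22.5% were lowest in tumour C_339, 18.9% in tumour C_364 and 14.5% in tumour C_375. Counts of list members by highest or lowest tumour, given below, are to be read beside these shares.

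The largest shares of reads went to respiration, translation, cytoskeleton and matrix genes. mt-Co1, a cytochrome c oxidase subunit encoded in mitochondrial DNA, led with 13.58 ± 0.41 log2 CPM and 1.31% of reads. It ranged from 12.99 in tumour C_364 through a median of 13.57 to 14.43 in tumour C_339, which lay apart from the other 7. Eef1a1, the elongation factor that brings aminoacyl-tRNA to the ribosome, followed at 13.18 ± 0.19, and Eef2, which moves the ribosome along the message, was at 12.05. Rn18s-rs5, annotated as related to 18S ribosomal RNA, was at 12.76 ± 0.26. Col3a1 (type III collagen; chromosome 1, 45350698-45388866, plus strand, GRCm39) was the highest matrix gene at 12.39 ± 0.32. Fn1, fibronectin, averaged 11.86 ± 0.49, the widest spread among the 20 highest genes. Its values ran from 11.21 in tumour C_339 through a median of 11.97 to 12.62 in tumour C_364, opposite in order to mt-Co1 at both ends. Vim, the mesenchymal intermediate filament vimentin, was both high and even at 11.22 ± 0.11, as was Lgals1, the secreted lectin galectin-1, at 11.21 ± 0.12. Actb (11.57), the chaperone Hsp90ab1 (11.63), the insulin-like growth factor binding protein Igfbp4 (11.13), the MHC class I heavy chain H2-D1 (11.02) and the glycolytic enzyme Pkm (10.98) were also among the 20.

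**Figure D1:**
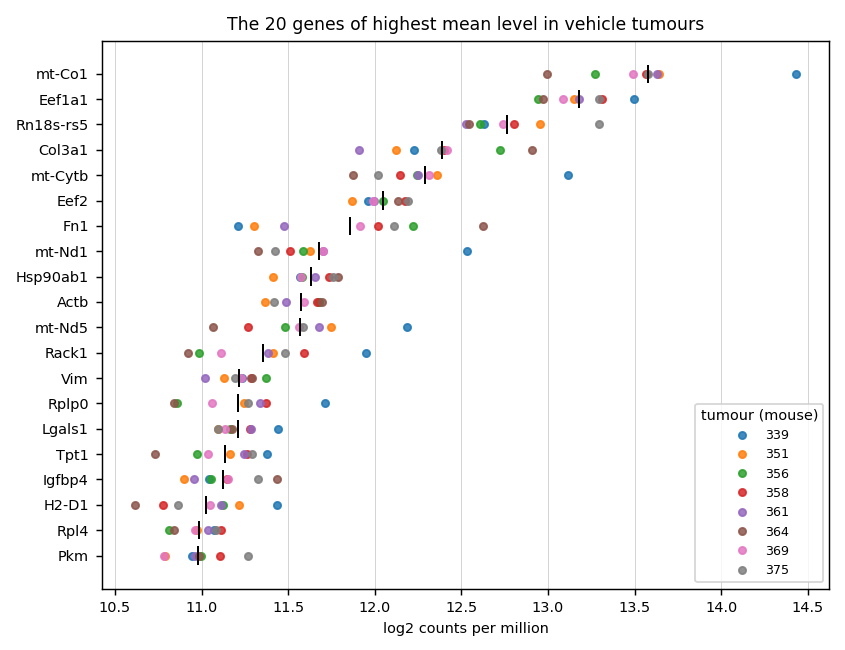
Levels of the 20 genes of highest mean, in log2 CPM on the horizontal axis, with 1 point per vehicle tumour and a black bar at the mean. Tumour C_339 lies to the right of the others for mt-Co1 (14.43), mt-Cytb and mt-Nd1, and tumour C_364 to the right for Fn1 (12.62) and Col3a1 (12.91).

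Read share favours long transcripts, and per kilobase of gene length the order changed: 11 of the 20 highest genes stayed among the 20. On the per-kilobase scale mt-Co1, mt-Cytb and Eef1a1 ranked 1, 2 and 3. Lgals1 rose to rank 6 and B2m, the light chain of MHC class I, stood at rank 7, while Col3a1 went to rank 45 and Fn1 to rank 92. Mitochondrial genes were counted very unevenly in the table. Of 11 protein-coding mitochondrial genes measured, mt-Co2, mt-Co3, mt-Atp6 and mt-Nd3 averaged -1.95 to -1.31 log2 CPM, below 1 CPM, beside a mt-Co1 of 13.58. The ribosomal protein gene Rpl13a was likewise listed at 6.65 ± 0.37, when Rpl13 was at 10.19. Genes with near-identical copies in the genome can lose or share reads in counting, and the sources used here do not say how such reads were treated.

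Genes that mark the state of the cancer cells were mostly high and varied about as much as other genes. Several of them, such as Vim, Fn1, Cd44, Axl, Zeb1 and Zeb2, are also expressed by host stromal cells. Of 31 genes of the tumour cell state list all were measured, 29 lay at or above the median level of all genes (3.64), and the median SD of its members was 0.137, beside 0.145 over all genes at or above the median level. Axl, a receptor tyrosine kinase of mesenchymal cells, was at 9.23 ± 0.06 and varied least among the higher members, from 9.15 to 9.33. Hmga2, a chromatin architectural protein of embryonic and tumour cells, was at 8.77 ± 0.29, with the lowest value, 8.34, in tumour C_364 and the highest, 9.34, in tumour C_375. Cd44, Ccnd1 and S100a6 were at 8.59 ± 0.12, 8.31 ± 0.13 and 9.62 ± 0.13. Among oncogenes and receptors, Myc was at 7.93 ± 0.23, Met at 7.54 ± 0.14, Nras at 7.27 ± 0.08 and Egfr at 7.16 ± 0.25. The transcription factors of the mesenchymal state Zeb2, Zeb1, Snai1 and Twist1 were at 6.99, 6.34, 5.47 and 5.35. Trp53, which encodes p53, was at 7.12 ± 0.13. Cdkn2a, the gene for the cell-cycle inhibitor p16 and for p19Arf, averaged 0.75 reads per tumour, 0.0756 CPM.

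The labelled cell type was set against lung and epithelial markers. Of 13 lung epithelial genes 4 were measured: Hopx at 4.13 ± 0.27, Napsa at 3.27 ± 0.41, Ager, a marker of alveolar type I cells, at 1.45 ± 0.34, and the ciliated-cell factor Foxj1 at -1.67 ± 0.65. The surfactant genes Sftpa1, Sftpb, Sftpc and Sftpd and the lung lineage factor Nkx2-1 were not analysed here, nor were Lamp3, Slc34a2, Scgb1a1 and Scgb3a2. Of 14 general epithelial genes 10 were measured and Cldn3, Cldn7, Esrp1 and Grhl2 were not analysed here. Epcam, an adhesion molecule of epithelial cells, averaged -3.09 ± 1.06 and 1.88 reads per tumour. Cdh1, E-cadherin, was at 1.44 ± 0.41 and Krt8, a keratin of simple epithelia, at 0.62 ± 0.49. Krt18, the partner of Krt8 in filaments, was higher at 5.30 ± 0.44, between 4.62 in tumour C_351 and 5.86 in tumour C_358, and the tight-junction scaffold Tjp1, which other cell types also use, was at 7.61 ± 0.26. Apart from Hopx, Krt18 and Tjp1, the measured markers of both lists lay below the median level of all genes, beside a Vim of 11.22, and the label of lung adenocarcinoma rests on the submitters' description of the line.

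Of 15 output genes of the MAPK pathway, which relays growth-factor signals, 14 averaged at least 1 CPM. The phosphatase Dusp6 was at 8.28 ± 0.18, the feedback inhibitors Spred1 and Spry2 at 7.94 ± 0.10 and 7.27 ± 0.24, and the epidermal growth factor receptor ligand Areg at 2.99 ± 0.64. The 15 members summed to 1157 CPM at the lowest, 1176 at the median and 1480 in tumour C_375, which lay apart from the rest. Replication and mitosis genes showed the reverse for that tumour. All 25 members were lowest in tumour C_375, where 14.5% of all genes at or above the median level had their lowest value. Their summed level was 1818 CPM there, against a median of 2748 and a highest value of 3006 in tumour C_356. Top2a, the topoisomerase of dividing cells, was at 7.90 in tumour C_375, 8.51 at the median and 8.77 in tumour C_356. Mki67, which encodes the proliferation antigen Ki-67, ran from 6.92 through 7.64 to 7.97 in the same tumours.

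Hypoxia and glycolysis genes were highest in tumour C_375 and lowest in tumour C_364 for most members. Of 28 entries for 27 listed genes (Aldoa has 2 gene identifiers), 19 were highest in tumour C_375 and 18 lowest in tumour C_364. Their summed level was also highest in tumour C_375, at 11444 CPM, but lowest in tumour C_369, at 7526 CPM, with 7809 CPM in tumour C_364. Slc2a1, the glucose transporter GLUT1, was at 7.31 in tumour C_364, 7.81 at the median and 8.75 in tumour C_375. The angiogenic factor Vegfa ran from 5.09 through 6.43 to 6.89, with the same tumours at the ends. The mitochondrially encoded list, by contrast, was not high in tumour C_375: its sum was 25466 CPM there, against a median of 26203 and 48064 in tumour C_339.

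Macrophage genes were the most abundant of the immune lists. All 20 were measured, 19 at a mean of at least 1 CPM, and they summed to 5849 CPM in tumour C_351, 6357 at the median and 7365 in tumour C_339, the narrowest relative range of the cell type lists after dendritic cell genes. Spp1, osteopontin, made by macrophages and by many tumour cells, was the highest at 10.71 ± 0.28. The lysozyme gene Lyz2 was at 10.03 ± 0.29, Apoe at 9.55 ± 0.24 and the complement component C1qa at 8.75 ± 0.22. Csf1r, the receptor on which macrophages depend, ranged from 7.14 in tumour C_375 through 7.46 to 8.01 in tumour C_364. Cd163, a scavenger receptor of tissue macrophages, was low and uneven, from 2.06 in tumour C_375 to 4.52 in tumour C_358. Ptprc, the pan-leukocyte gene for CD45, was at 7.15 ± 0.34, with tumours C_358 (6.63), C_364 (6.75) and C_375 (6.92) below the other 5, which lay between 7.28 and 7.51.

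Neutrophil genes were low. Of 20 listed genes 17 were measured, 10 of them at a mean of at least 1 CPM, and their sum ran from 115 CPM in tumour C_364 to 171 in tumour C_375. Mmp9, also made by other cells, was the highest at 5.74 ± 0.39; it was lowest in tumour C_375, where S100a8 and S100a9 were highest. S100a9, a subunit of calprotectin, ranged from 1.83 in tumour C_364 through 3.89 to 5.28 in tumour C_375, a difference of 11.0-fold, and its partner S100a8 from 1.54 through 3.04 to 4.68 in the same tumours. Stfa2, a stefin of granulocytes, averaged under 0.1 CPM, and Ly6g, the surface marker of mouse neutrophils, averaged -2.12 ± 1.45 and 4.62 reads. The granule genes Camp, Mpo and Elane were not analysed here. Monocyte genes summed to 804 to 1139 CPM, led by Vcan (9.20 ± 0.31), which stromal cells also express, and Ccr2 (7.25 ± 0.30), the receptor for Ccl2. Within that list Chil3 ran from -0.07 in tumour C_364 through 2.96 to 3.41 in tumour C_358.

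Lymphocyte genes were low and uneven. All 23 T cell genes were measured and none reached the median level of all genes; they summed to 57.5 CPM in tumour C_358, 95.3 at the median and 117 in tumour C_351. Cd3e, a chain of the T cell receptor complex, was at 1.68 ± 0.43 with 55.4 reads per tumour on average. Cd8a, the co-receptor of cytotoxic T cells, ranged from 1.23 in tumour C_364 through 2.35 to 3.43 in tumour C_351. Tumours C_339 and C_351 were highest for Cd8a, and C_358, C_364 and C_375 lowest. NK and cytotoxic genes differed more, with a sum of 26.96 CPM in tumour C_358, 57.2 at the median and 94.6 in tumour C_339, a range of 3.51-fold. Gzmb, the killing protease granzyme B, ran from 2.16 in tumour C_364 through 3.25 to 3.96 in tumour C_351, and Klrk1, the receptor NKG2D, from 2.34 in tumour C_358 through 3.56 to 4.24 in tumour C_351. All 16 cytotoxic genes were lowest in tumour C_358, C_364 or C_375, and all 16 highest in tumour C_339, C_351 or C_356. Of all genes at or above the median level, 5.86%, 18.9% and 14.5% were lowest in the first 3 of these tumours, and 24.1%, 6.10% and 9.22% were highest in the others; the cytotoxic genes themselves all lay below that level.

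B and plasma cell genes summed to 476 to 612 CPM, but Sdc1 (7.86 ± 0.15) and Xbp1 (7.80 ± 0.16), which other cell types also express, made up most of that. Of the defining members, Cd79a, a chain of the B cell receptor, averaged -1.93 ± 1.08, and Ms4a1 was not analysed here. Ighm, the IgM heavy chain, was at 5.11 ± 0.42. The IgG heavy chain Ighg2b had the largest SD of the list at 1.84, from -2.59 in tumour C_375 to 2.97 in tumour C_351. Dendritic cell genes summed to 920 to 1143 CPM, led by Fscn1 (8.61 ± 0.23) and Tcf4 (8.18 ± 0.14), which are not restricted to dendritic cells. Mast cell proteases were higher than T cell genes: Mcpt4, Tpsb2 and Cpa3 were at 5.78 ± 0.57, 5.78 ± 0.53 and 5.53 ± 0.55, and all 3 were highest in tumour C_364, at 6.58, 6.47 and 6.22. Eosinophil genes summed to 0.667 to 4.16 CPM over the 4 of 8 measured.

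**Figure D2:**
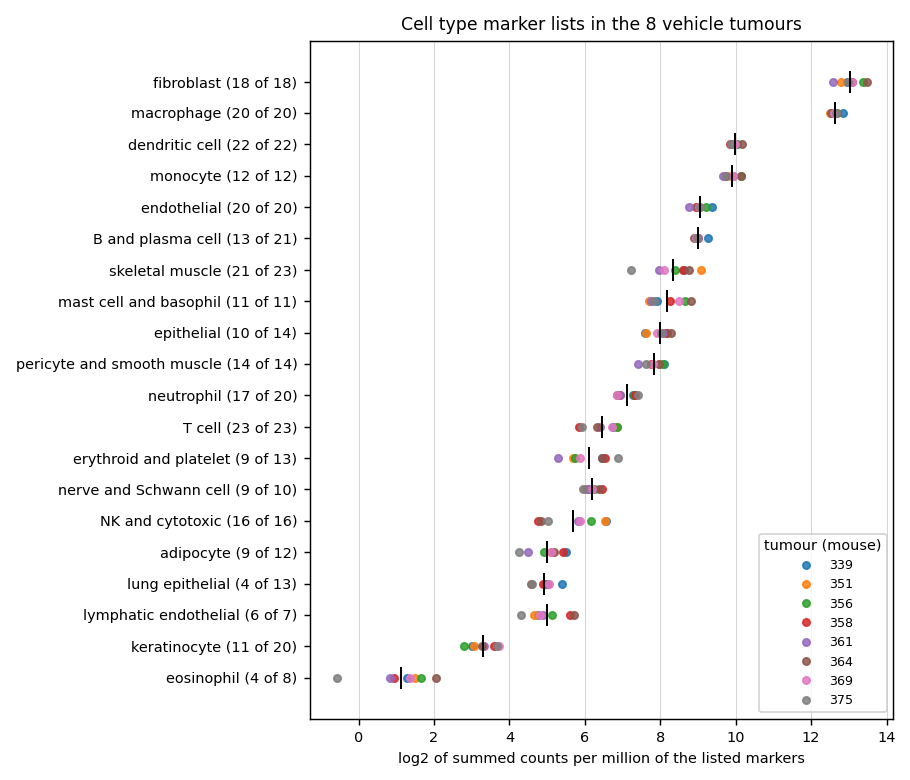
Summed level of each cell type marker list, as log2 of summed CPM, with 1 point per vehicle tumour, a black bar at the mean and the number of listed genes measured in brackets. Fibroblast and macrophage lists are highest, and skeletal muscle (149 to 540 CPM) and NK and cytotoxic genes (26.96 to 94.6 CPM) spread most widely among lists above 20 CPM.

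Fibroblast genes had the largest sum of the cell type lists, from 6145 CPM in tumour C_361 through 8341 to 11354 in tumour C_364, and Col3a1 alone contributed 5469 CPM on average. The small proteoglycans Dcn and Lum, at 10.00 ± 0.22 and 8.91 ± 0.12, were even across tumours. Type I and type III collagen genes differed in their order over the tumours. Col3a1 ranged from 11.91 in tumour C_361 through 12.39 to 12.91 in tumour C_364 and was at 12.38 in tumour C_375. Col1a2 (type I collagen alpha 2 chain; chromosome 6, 4504814-4541544, plus strand, GRCm39) ranged from 4.82 in tumour C_375 through 7.60 to 8.59 in tumour C_356, a difference of 13.6-fold. Col1a1, the partner chain, ran from 6.61 through 8.17 to 9.07 in the same tumours. Tumour C_375 was thus the lowest for type I collagen and near the middle for type III. This contrast was chosen after the values were seen. Fap, a protease often used to mark activated fibroblasts, was low at 1.19 ± 0.47.

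Vessel genes varied less. All 20 endothelial genes were measured and summed to 431 CPM in tumour C_361, 524 at the median and 660 in tumour C_339. Eng, an auxiliary receptor for the TGF-beta family, was at 7.18 ± 0.19 and the junction gene Pecam1 at 5.81 ± 0.27. Apln, the ligand apelin, had the largest SD of the list at 0.59 and was lowest in tumour C_364 and highest in tumour C_375. Pericyte and smooth muscle genes summed to 169 to 276 CPM.

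Genes of other tissues, such as muscle, fat and skin, were measured as well, and whether they came from tissue next to the tumour was not tested. Skeletal muscle genes summed to 149 CPM in tumour C_375, 361.7 at the median and 540 in tumour C_351, and 18 of 21 measured members were lowest in tumour C_375. Acta1, skeletal muscle actin, ran from 5.12 in tumour C_375 through 6.45 to 7.18 in tumour C_351. The fast myosin Myh4 had an SD of 2.05 and ran from -1.74 to 4.57. Adipocyte genes summed to 19.03 to 45.4 CPM, also lowest in tumour C_375, and Adipoq, adiponectin, had 12.9 reads on average. Of 20 keratinocyte genes 11 were measured and summed to 6.98 to 13.3 CPM. The basal keratin Krt14 was at its floor of 0 reads in tumours C_351 and C_356 and at most 1.07 elsewhere. Haemoglobin Hbb-bs, a marker of red blood cells, ran from 3.72 in tumour C_356 through 4.55 to 5.99 in tumour C_375. Xist, the X-inactivation RNA of female cells, lay between 9.62 and 10.59 in all 8 tumours, and the Y-linked genes Ddx3y, Uty, Eif2s3y and Kdm5d were not analysed here. The table places 3 other genes on chromosome Y, the long non-coding RNA Gm47283 and the pseudogenes Mid1-ps1 and Gm21742, and they averaged 14.1, 4.78 and 0.864 CPM.

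Antigen presentation genes were abundant. MHC class I genes summed to 5897 CPM in tumour C_364, 7677 at the median and 9506 in tumour C_339, and 11 of 13 were highest in tumour C_339, where 24.1% of all genes at or above the median level had their highest value. H2-D1 ran from 10.61 through 11.08 to 11.44 and B2m from 10.15 through 10.79 to 11.16, with the same tumours at the ends. MHC class II genes summed to 1867 CPM in tumour C_358, 2981 at the median and 4362 in tumour C_339. H2-Ab1, a class II beta chain, ranged from 8.40 through 9.06 to 9.86 and Ciita, the transactivator of the class II genes, from 4.49 through 5.24 to 5.71, with the same tumours at the ends. The class II invariant chain Cd74 averaged 9.90 ± 0.43.

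Type I interferon response genes, a set induced by interferon alpha and beta, summed to 539 CPM in tumour C_364, 1014 at the median and 1236 in tumour C_361. Of 24 members, all measured, 17 were lowest in tumour C_364 and 13 highest in tumour C_361, where 11.4% of all genes at or above the median level had their highest value. Irf7, a transcription factor that amplifies interferon production, ran from 5.39 through 6.41 to 7.01. Isg15, a ubiquitin-like modifier, ran from 3.48 in tumour C_364 through 4.76 to 5.47 in tumour C_339. Stat2 and Oasl2, the other leading members, were at 6.77 ± 0.35 and 6.45 ± 0.44. Chemokine genes were led by Ccl2 (8.01 ± 0.41), which attracts monocytes, and the sum of the 22 measured was lowest in tumour C_364 at 584 CPM, against 978 at the median and 1284 in tumour C_339.

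The molecules that the study's treatments act on were expressed at moderate to low levels in these vehicle tumours. Pdcd1, the gene for PD-1, ran from 0.61 in tumour C_364 through 2.24 to 3.10 in tumour C_339, a difference of 5.60-fold at 78.1 reads on average. Its ligand gene Cd274, PD-L1, was higher and ran from 4.20 through 5.30 to 5.69 with the same tumours at the ends. C5ar1, the receptor of complement fragment C5a, was even at 4.97 ± 0.19, between 4.71 and 5.26. Hc, the gene for complement C5, from which C5a is cut, averaged -1.50 ± 0.81 and 6.12 reads, while C3, the central complement component, ran from 5.40 in tumour C_375 through 6.62 to 7.41 in tumour C_339. The poly I:C sensors Tlr3 and Ifih1 were both at 3.92, with SDs of 0.32 and 0.54, and Eif2ak2, the kinase PKR, was at 6.63 ± 0.17.

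Most genes differed little between the 8 tumours. Of the 9362 genes at or above the median level, 7015 (74.9%) had an SD under 0.2 on the log2 scale, and the median SD was 0.145. That spread was above counting error: the SD that counting alone would give had a median of 0.0488, and 9270 genes (99.0%) exceeded their own value. The steadiest genes sat near the counting limit. Syncrip, an RNA-binding protein, ran from 7.84 to 7.89 with an SD of 0.02, and Pex6, a peroxisome biogenesis ATPase, from 5.78 to 5.86. Fbxo3, Glyr1, Tbc1d14, Atf2, Itch, Acbd5, Purb and Rb1cc1 completed the 10 genes of smallest SD, the last of them, Rb1cc1, at 0.035. At the other end, 148 genes had an SD of at least 0.5 and 8 an SD of at least 1.

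**Figure D3:**
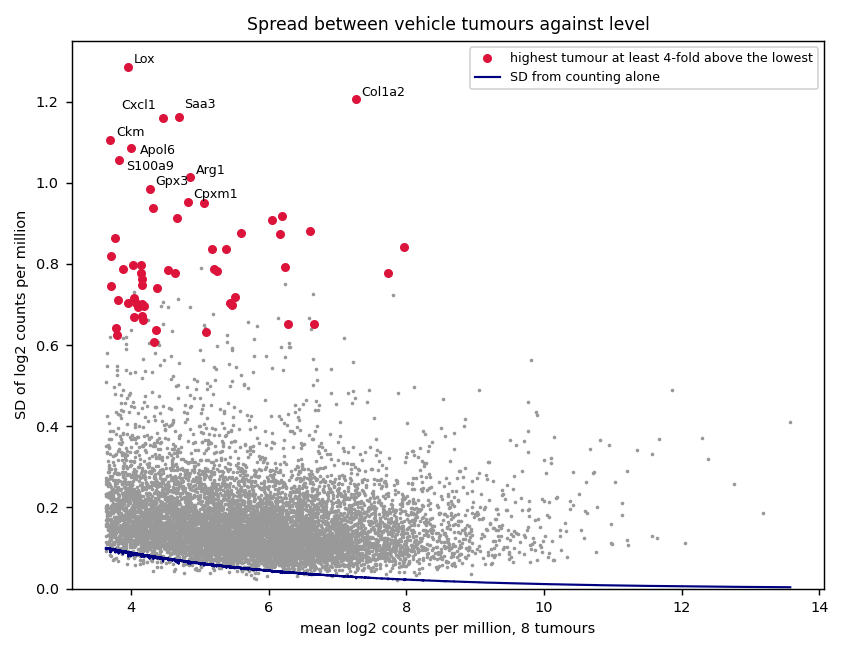
SD of log2 CPM over the 8 vehicle tumours against the mean, for the 9362 genes at or above the median level; red points are the 57 genes with a 4-fold or larger range and the line is the SD expected from counting alone. Lox, Col1a2, Saa3 and Cxcl1 have the largest spread, far above the line.

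A gene was called variable when its highest tumour was at least 4-fold above its lowest, which held for 57 genes, 0.609% of the 9362; 4 of them carry predicted or clone-based names. No antigen receptor segment reached the median level. Just inside the threshold were Tnnt3 and C3, with ranges of 2.02 and 2.01 on the log2 scale, and just outside were Isg15 and Fcrls, with 1.99 and 1.97. Grouping the 57 by the correlation of their values over the tumours, with the number of groups set at 4 after the data were seen, gave groups of 22, 23, 9 and 3 genes. Since the groups were formed from these values, their patterns are descriptions.

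The first group, of 22 genes, held several genes known to be induced by interferons, although 1 member of the type I interferon response list described above was among the 57. It included the guanylate-binding proteins Gbp3, Gbp4, Gbp6 and Gbp8, the chemokines Cxcl9 and Cxcl10, which attract activated T cells, the immunity-related GTPase Iigp1, Mx1, Apol6 and the acute-phase gene Saa3. Of the 22, 20 were lowest in tumour C_364 and 2 in tumour C_358, while 11 were highest in tumour C_339 and 7 in tumour C_351. Cxcl9 (chromosome 5, 92469206-92475938, minus strand, GRCm39) was at 7.70 in tumour C_339, 7.43 in C_351, 7.18 in C_356, 5.72 in C_358, 6.87 in C_361, 5.32 in C_364, 6.77 in C_369 and 5.77 in C_375. Tumours C_358, C_364 and C_375 were the 3 lowest, at 5.77 or less, and the other 5 were at 6.77 or more. This division was read from the Cxcl9 values themselves. Gbp4, placed in the same group because its values correlate, had the same 3 lowest tumours. It was at 7.05, 7.29, 6.55, 5.08, 6.58, 4.89, 6.69 and 5.49 in the same order of tumours. Saa3 did not: it was lowest in tumour C_364 at 3.09 but highest in tumour C_358 at 6.38. Slfn4, a member of the Schlafen family, ran from 3.31 in tumour C_364, alone, to 6.19 in tumour C_361.

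Promoter sequences of this group, which was formed by the correlation of its members' values over the tumours, are shown as a description. Promoter windows from RefSeq (GRCm38.p6, another build than that of the table's coordinates), reaching from 250 bases before to 50 after the gene start, were matched by symbol for 35 of the 57 variable genes, 15 of them in the first group. The interferon-stimulated response element, searched on both strands as GAAA, any 2 bases and GAAA, was found for 6 of those 15 genes (Saa3, Gm12250, Gbp3, Cxcl10, Apol9a and Ifi205) and for 3.99% of all 27025 genes with a window. The gamma-activated sequence, searched as TTCNNNGAA, was found for 2 of the 15 and for 9.55% of all genes. The windows of Cxcl10 (chr5:92348840-92349139, minus strand), Gbp3 (chr3:142559794-142560093, plus strand) and Cxcl9 (chr5:92328030-92328329, minus strand) are printed in the direction of transcription, with matches to the response element in capitals. Gbp3 holds 2 overlapping matches on the reverse strand, and the Cxcl9 window holds none of these letters.
Cxcl10: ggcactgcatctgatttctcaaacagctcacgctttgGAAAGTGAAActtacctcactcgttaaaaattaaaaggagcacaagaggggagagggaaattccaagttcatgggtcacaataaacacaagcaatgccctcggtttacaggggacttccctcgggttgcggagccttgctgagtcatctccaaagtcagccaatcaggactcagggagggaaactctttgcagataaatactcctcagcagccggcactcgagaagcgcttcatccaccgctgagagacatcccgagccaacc
Gbp3: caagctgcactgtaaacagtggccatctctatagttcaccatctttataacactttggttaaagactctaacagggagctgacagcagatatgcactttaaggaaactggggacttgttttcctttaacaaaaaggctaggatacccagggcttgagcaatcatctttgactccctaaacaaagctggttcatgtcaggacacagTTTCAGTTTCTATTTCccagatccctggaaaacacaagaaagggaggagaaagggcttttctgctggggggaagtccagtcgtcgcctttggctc
Cxcl9: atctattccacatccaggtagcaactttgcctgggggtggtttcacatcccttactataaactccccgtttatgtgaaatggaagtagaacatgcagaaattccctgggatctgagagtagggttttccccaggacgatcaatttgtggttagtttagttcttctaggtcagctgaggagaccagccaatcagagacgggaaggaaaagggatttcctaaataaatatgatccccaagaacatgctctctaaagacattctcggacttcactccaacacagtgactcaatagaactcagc
A match is a stretch of letters, not a shown binding site. The 27025 genes with a window are not limited to genes expressed in these tumours, and no difference in share was tested.

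The wider families of interferon-inducible GTPases were assembled by symbol after the values were seen. They include 5 genes of the first group (Gbp3, Gbp4, Gbp6, Gbp8 and Iigp1), whose agreement with it follows from the grouping. Some members, such as Gbp4, Gbp8 and Gbp9, have overlapping gene spans, so the counts that follow are a description. Of 19 members 18 had an SD of at least 0.5, 16 were at or above the median level of all genes and 5 were in the 4-fold set. Among all 9362 genes at or above that level, 148 had such an SD and 0.609% were in the 4-fold set. Gbp2b, Gbp10 and Gbp11 lay below that level and averaged 77.8, 26 and 18.8 reads. In the median member, tumours C_339 and C_351 lay 0.80 and 0.69 above the gene's mean, and tumours C_358, C_364 and C_375 lay at -0.80, -1.03 and -0.79. For 18 members the highest tumour was C_339 or C_351, where 24.1% and 6.10% of all genes at or above the median level had their highest value. Irgq, with the smallest SD (0.26), was the exception and was highest in tumour C_364. The cytotoxic genes and MHC class II genes described above had their low values in the same 3 tumours, as did Ptprc. The T cell sum was also lowest there, but not all immune sums were. The macrophage sum in tumour C_358, 6524 CPM, was above the median of 6357, and the neutrophil sum was highest in tumour C_375. Of the macrophage genes, 11 of 20 were lowest in tumour C_375, where Spp1 was highest at 11.26. The mean of members' log2 CPM placed the macrophage list highest in tumour C_358 and lowest in C_375. Monocyte and dendritic cell sums were highest in tumour C_364, at 1139 and 1143 CPM. They were led there by Vcan, and by Fscn1 and Tcf4, which other cells also express. By the mean of members' log2 CPM, these lists were highest in tumours C_339 and C_351 and lowest in C_364 and C_375, in that order. In tumour C_364, 6 of 12 monocyte genes were lowest and 2 highest. Of 22 dendritic cell genes, 8 were lowest in tumour C_358, 3 in C_364, where 4 were highest, and 7 in C_375. Of all genes at or above the median level, 5.86%, 18.9% and 14.5% were lowest in tumours C_358, C_364 and C_375. Tumour C_339 also had the highest mitochondrial and ribosomal protein shares, and the part of these in the group's pattern was not tested. Over all groups together, the 57 variable genes became 44 without tumour C_339 and 34 without tumour C_364.

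**Figure D4:**
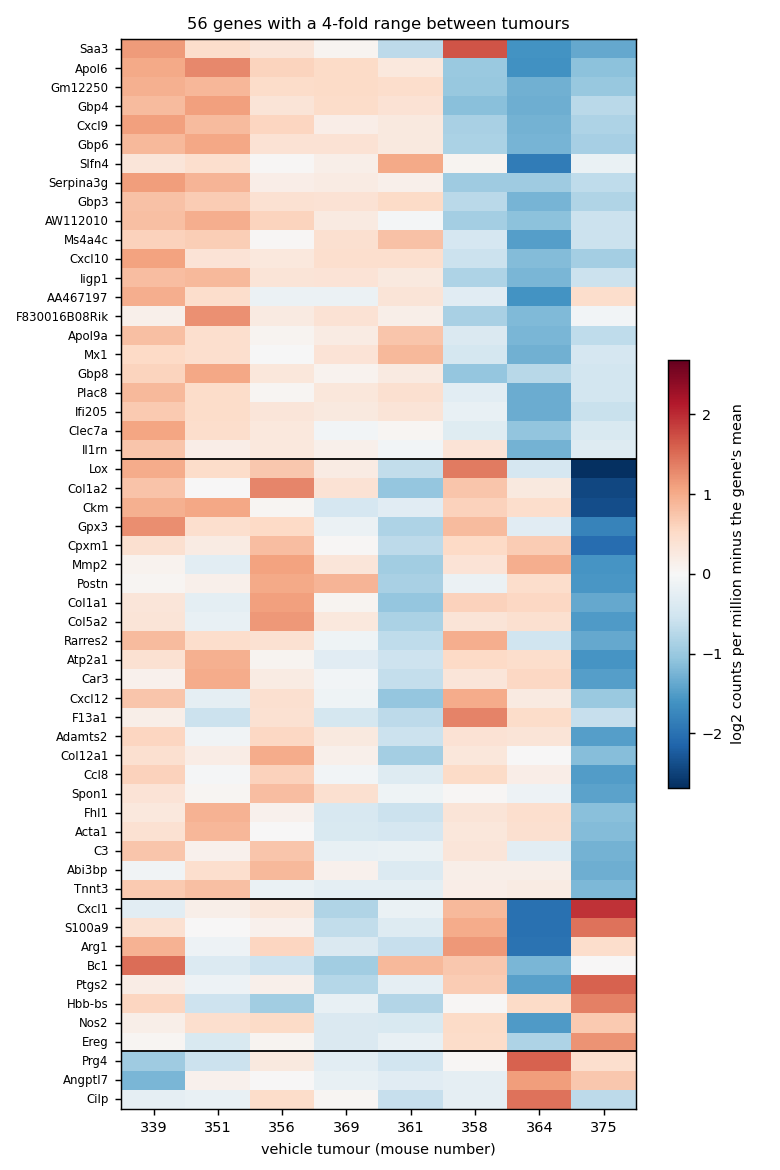
The 56 genes drawn of the 57 with a 4-fold or larger range, each shown as its log2 CPM minus its mean (red above, blue below) in the 8 vehicle tumours, in 4 groups separated by lines. The upper group is lowest in tumour C_364 for 20 of 22 genes, the next lowest in tumour C_375 for 21 of 23, and most genes of the third are highest in tumour C_375.

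The second group, of 23 genes, held genes of fibrillar matrix and of skeletal muscle, among others. It also held C3, the chemokines Ccl8 and Cxcl12, F13a1, Rarres2 and Gpx3. Of the 23 genes, 21 were lowest in tumour C_375. Lox (lysyl oxidase, which cross-links collagen; chromosome 18, 52649139-52662939, minus strand, GRCm39) was the gene of largest SD in the whole set, 1.29. Its values were 4.95 in tumour C_339, 4.45 in C_351, 4.69 in C_356, 5.36 in C_358, 3.30 in C_361, 3.51 in C_364, 4.18 in C_369 and 1.28 in C_375, a range of 16.8-fold. Tumour C_375 lay about 2 log2 units below the next. Col1a1, Col1a2, Col5a2, Col12a1, the matricellular protein Postn and the gelatinase Mmp2 belonged to the group, and Postn ran from 4.60 in tumour C_375 through 6.27 to 7.19 in tumour C_356. The muscle genes Ckm, Acta1, Atp2a1 and Tnnt3 were in it as well. Ckm, muscle creatine kinase, was at 1.32 in tumour C_375 and between 3.26 and 4.74 in the other 7. Muscle and adipocyte lists were lowest in the same tumour as the matrix genes, and their part in the matrix pattern was not tested. Not all matrix genes shared it: Fn1, Col3a1, Dcn and Lum were not lowest in tumour C_375, and Mmp3, the protease stromelysin-1, was at 11.02 there, against 9.80 to 10.18 in the other 7.

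The third group, of 9 genes, held several inflammatory genes, most with high values in tumour C_375 and low ones in tumour C_364. Its members included Cxcl1, S100a9, Arg1, Ptgs2, Nos2, Ereg, Hbb-bs and the non-coding RNA Bc1. Cxcl1 (a neutrophil-attracting chemokine; chromosome 5, 91039100-91040974, plus strand, GRCm39) was at 4.19 in tumour C_339, 4.63 in C_351, 4.77 in C_356, 5.33 in C_358, 4.28 in C_361, 2.46 in C_364, 3.67 in C_369 and 6.41 in C_375. The highest and lowest tumours differed by 15.4-fold, and both lay more than 1 log2 unit from the nearest other. Ptgs2, the inducible prostaglandin synthase COX-2, ran from 4.60 through 6.06 to 7.63 in the same tumours. Arg1, arginase 1 of myeloid cells, was also lowest in tumour C_364, at 2.89, but highest in tumour C_358, at 6.02. Of 15 genes listed as suppressive myeloid effectors, to which Arg1, Ptgs2 and Nos2 belong, 13 were lowest in tumour C_364. Of all genes at or above the median level, 18.9% were lowest in that tumour.

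The NF-kappaB motif, searched on both strands as GGGA, any 1 base and TTTCC, was found in the promoter window of Cxcl1 and of none of the other 4 matched genes of the third group, and in 0.466% of all genes. The Cxcl1 window (chr5:90890995-90891294, plus strand, GRCm38.p6) is shown with the match in capitals.
Cxcl1: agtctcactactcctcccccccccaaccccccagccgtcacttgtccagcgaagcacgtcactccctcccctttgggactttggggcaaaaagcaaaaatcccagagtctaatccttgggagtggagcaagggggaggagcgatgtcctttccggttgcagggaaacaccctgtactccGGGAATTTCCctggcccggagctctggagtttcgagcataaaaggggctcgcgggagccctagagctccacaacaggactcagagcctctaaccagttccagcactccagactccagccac

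The fourth group held Prg4, Angptl7 and Cilp, all highest in tumour C_364. Prg4, the joint lubricant lubricin, ran from 2.93 in tumour C_339 through 3.77 to 5.46. Cilp, a protein of cartilage intermediate layer, ran from 3.50 in tumour C_375 through 3.98 to 5.64, and Angptl7, a secreted angiopoietin-like protein, from 2.86 in tumour C_339 through 3.99 to 5.20. Tumour C_364 lay at the top of the fibroblast and mast cell sums as well.

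Principal components over the 9362 genes summarised these differences. The first held 38.7% of the variance and ran from tumour C_339 (score -18.8) and C_351 (-8.39) to C_364 (21.6). Its most negative loadings were those of Apol6, Bc1, Gbp4, Cxcl9 and Slfn4, and its most positive those of Prg4, Angptl7, Cilp, Lrrc15 and Fn1. The second held 23.3% and set tumour C_375 (19.8) apart from the others, which lay between -8.60 and 4.29. Col1a2, Lox, Cpxm1, Ckm and Mmp2 had its most negative loadings, and Cxcl1, Ptgs2, S100a9 and Ier3 were among its most positive.

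**Figure D5:**
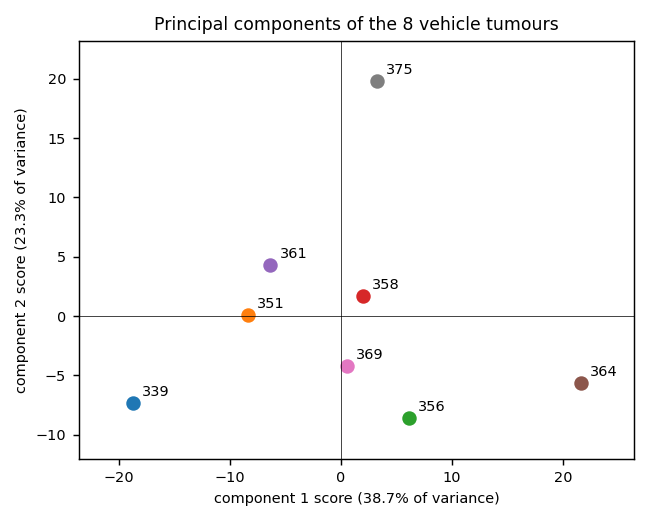
Scores of the 8 vehicle tumours on the first (38.7% of variance) and second (23.3%) principal components of 9362 genes, with 1 point per tumour labelled by mouse number. Tumours C_339 (-18.8) and C_364 (21.6) lie at the ends of the first component and tumour C_375 (19.8) at the end of the second.

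Single marker genes were correlated over the 8 tumours to ask which cell types and programs varied together. Of 105 pairs among 15 genes, 20 had p under 0.05 by Pearson's r and 15 by Spearman's rho in two-sided exact permutation tests over all 40320 pairings, and 0 pairs passed after Benjamini-Hochberg adjustment by either measure. The smallest adjusted p was 0.108 for Pearson's r, shared by several pairs. H2-Ab1 and Gzmb had r = 0.895 (exact permutation p = 0.0035) and rho = 0.881 (exact p = 0.00724; adjusted p = 0.152), and r was 0.975 without tumours C_339 and C_358, the 2 farthest from the median of H2-Ab1. Csf1r and S100a8 had r = -0.905 (exact permutation p = 0.00404) and rho = -0.786 (exact p = 0.0279; adjusted p = 0.244), with r = -0.900 without tumours C_356 and C_364. Those tumours were the farthest from the median of Csf1r. Tumour C_375, lowest for Csf1r and highest for S100a8, stayed in. S100a8 and Slc2a1 had r = 0.876 (exact permutation p = 0.00432) and rho = 0.786 (exact p = 0.0279; adjusted p = 0.244), and r was 0.676 without tumours C_364 and C_375. Cd3e and Krt14 had the smallest p, with r = -0.865 (exact permutation p = 0.00117) and rho = -0.905 (exact p = 0.00456; adjusted p = 0.12). Without tumours C_351 and C_356, where Krt14 had 0 reads, r was -0.679. Slc2a1 and Ighm had r = -0.883 (exact permutation p = 0.0058; rho = -0.690, exact p = 0.0694 and adjusted p = 0.331) and r = -0.249 without tumours C_358 and C_375, so that relation rested on those tumours.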

How the data were processed

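RNA from 8 vehicle tumours, of 24 in the study, was extracted with a column kit and made into libraries with a stranded mRNA ligation kit, per the labels' protocols. Tools listed in the submitters' processing notes are STAR 2.7.9a, featureCounts 1.6.0, FastQC 0.11.8, limma and edgeR, and the build listed is GRCm39. The authors deposited 1 table of log2 values for 18723 genes. In every vehicle tumour the values equalled log2 CPM, with 0.5 added to each read count before division by a scaled library, and inverting this gave whole numbers of reads (tolerance 0.01) for 100% of values. The scaling method and the filter on genes are not given in the sources used here. The scaled size was 1.00 to 1.07 times the total of 14438318 to 17225195 reads. All sample columns of the table were matched to labelled samples.

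Means, SDs, sums of CPM over gene lists, ranges and principal components were computed in Python 3.11.15 with numpy 2.4.6, pandas 2.3.3 and scipy 1.17.1, and figures in matplotlib 3.10.9. The 57 variable genes were grouped by average linkage on correlation distance. The computation of spread was tested on simulated data. The counting SD is that of a Poisson count at each gene's mean reads, so intervals from it cover counting error only. Gene lengths came from GENCODE M21 (GRCm38) by gene identifier, matching 18218 identifiers (97.3%). Symbols and GRCm39 coordinates are the table's own. The 36 gene lists, the members and the rules were chosen with earlier results of these data known.

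Genes were named by a rule. It took the 20 of highest mean, the 20 of largest and 10 of smallest SD at or above the median level, and the 5 largest loadings of each sign on 2 components, leaving out 3808 predicted or clone-based names and receptor segments. It added each list's 3 highest members, its member of largest SD at 1 CPM or more and its members under 0.1 CPM or not analysed here, the 15 genes of the correlation family, and a few genes given by name. Others named, such as further list members and the members of the groups of variable genes, were chosen after their values were seen. Alternatives were other scalings, filters, thresholds, pseudocounts and summaries, and leaving out each tumour in turn. P-values are those of the permutation tests of correlation, and they measure the association of 2 genes over these tumours. They do not measure the spread between tumours. The labels state no library batch or date. A few genes that the rule names are not reported here.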

Additional observations from a re-analysis of the deposited data

Results flagged for a closer look

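Each of 182 named genes with a mean of at least 1 CPM and each of 36 gene lists was searched for a single tumour far from the other 7. A value counted when the gap to the nearest tumour, as a share of the whole range, exceeded Dixon's critical value for 8 samples; chance alone gives about 1 in 20, a rate that does not hold for genes named because of their spread, loading or list extreme in these same tumours. This held for 16 genes and 6 lists.

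Tumour C_375 accounted for 8 of these. It was low for Ckm (gap over range 0.568), the lectin Cd209a (0.629), the eosinophil ribonuclease Ear2 (0.565), Top2a (0.548), the eosinophil list (0.538) and the replication and mitosis list (0.574), and high for Mmp3 (0.687) and the MAPK output list (0.586). In tumour C_375 Ear2 was at -3.32 and Cd209a at -1.74 log2 CPM, so both gaps rest on few reads. Ear2 was the 1 eosinophil gene averaging at least 1 CPM, so it and the eosinophil list are not separate findings. Tumour C_339 accounted for 7. It was high for mt-Co1 (0.551), mt-Cytb (0.612), mt-Nd1 (0.685), the endoplasmic reticulum chaperone Hspa5 (0.587), the mitochondrially encoded list (0.566) and the B and plasma cell list (0.691), and it stood apart for Acbd5 (0.532), a gene whose SD was near the counting limit. Tumour C_364 accounted for 5, all of them low values: Slfn4 (0.584), Chil3 (0.741), Ccl2 (0.672), Cxcl3 (0.532) and the chemokine list (0.589). Cxcl3 was at -1.41 log2 CPM in tumour C_364, so its gap also rests on few reads. Tumour C_351 was low for the chaperone Hspa8 (0.607), and tumour C_356 stood apart for Glyr1 (0.572), another gene near the counting limit.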

How the results depend on the processing

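The median level of all genes, 3.64 log2 CPM, became 3.69 on the plain total of reads and 3.69 with median-of-ratios scaling, a shift larger than the SD between tumours, and it stayed within 3.63 to 3.64 when each tumour was left out. The 20 highest genes kept 11 members per kilobase of gene length and 18 to 20 when each tumour was left out. All 36 list levels moved by less than 1 SD under the scalings and with each tumour left out. With the mean of members' log2 CPM in place of summed CPM, 21 of 36 lists kept their highest tumour. Among the others, it moved from C_339 to C_358 for macrophage genes. For fibroblast and mast cell genes it moved from C_364 to C_356. For monocyte and dendritic cell genes it moved from C_364 to C_339 and to C_351. The lowest tumour also changed for some lists. It moved to C_375 from C_351 for macrophage genes, from C_361 for fibroblast genes and from C_358 for dendritic cell genes. To C_364 it moved from C_361 for monocyte genes and from C_351 for MAPK output genes.

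The count of variable genes depended most on its definition. The 57 genes became 3423 with no filter on low values, 448 with a filter at the 25th percentile, 9 at an 8-fold range, and 8 at an SD of at least 1, also after the counting variance was taken off (8). It ranged from 34 to 57 when each tumour was left out, with 34 without tumour C_364, 40 without tumour C_375 and 44 without tumour C_339; without C_339 and C_375 together, chosen after seeing the data, it was 29. Component 1 held 34.8% to 48.1% and component 2 17.8% to 26.4% of the variance when each tumour was left out. The count of correlated pairs was 0 under all 11 alternatives. No paired analysis was possible because a single group was described and each mouse number occurs once. Depth limits genes of few reads, such as Cdkn2a and Epcam, whose SD is close to or within counting error.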
